A study of Mus musculus with 20 samples.

Results

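The 33 genes described here encode the subunits of the transcription factor NF-kB, the proteins that hold it back or release it, and well-known survival and other target genes. They were chosen by symbol, from a list drawn up with earlier results of these data known, and are 33 of the 24421 genes in the count tables. Bone marrow-derived macrophages of 5 mice were treated for 48 h, and RNA of each mouse was sequenced under 4 conditions, 20 libraries in all. The conditions, by the labels, are LP 3M PIC, LP 3M, LP PIC and LP. In keeping with the series title, LP 3M PIC was taken for the dual formulation, LP 3M and LP PIC for the single ones and LP for lipoparticles with no adjuvant. All 4 conditions hold the lipoparticle, so that LP is not an untreated control. All cells also grew in medium with serum and with L929 cell supernatant, a source of the macrophage growth factor CSF-1. The labels give neither strain, sex and age of the mice nor the amounts of adjuvant.

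NF-kB is a dimer of Rel-family subunits that IkB proteins keep in the cytoplasm of resting cells. Receptors for microbial products and for TNF activate the IkB kinase complex through TRAF adaptors and ubiquitin chains, IkB is degraded, and the dimer enters the nucleus. In macrophages many of its target genes encode its own inhibitors, such as Nfkbia and Tnfaip3, and proteins that protect the cell from death, such as Birc3, Cflar and Sod2.

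Levels are given as CPM, a gene's counts in every 1000000 gene counts of its library, with plain library totals. The libraries held 9740528 to 23874805 gene counts, and 3 counts, taken as the floor, came to 0.126 to 0.308 CPM. All 33 genes passed the filter on low counts. A gene was called when edgeR's quasi-likelihood test, fitted over all 20 libraries and 12132 genes, gave a Benjamini-Hochberg adjusted p under 0.05, and changes are log2 fold changes with their SE. The 10 macrophage markers all had counts, with summed levels of 12220 to 17050 CPM with LP 3M PIC, 21520 to 27160 with LP 3M, 13890 to 20120 with LP PIC and 11680 to 19110 with LP. Single markers moved in different directions. Lyz2 averaged 6466 ± 1828 CPM with LP 3M PIC and 9708 ± 3097 with LP, and Cd68 1678 ± 617 and 2480 ± 244. Adgre1 averaged 2388 ± 742 CPM with LP 3M PIC, 4004 ± 1197 with LP 3M, 748 ± 92.2 with LP PIC and 697 ± 74.4 with LP (SD, n = 5). Markers of T, B, NK and mast cells summed to at most 2.84 CPM in any library. The cells were measured in bulk, so that a change in the share of cells that express a gene and a change in RNA per cell cannot be told apart.

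Of the 33 genes 27 had a promoter in the RefSeq table for GRCm38.p6, which gives 250 bases before and 50 after each gene's start as placed there. The kappaB consensus, the 10-base motif that NF-kB dimers bind, was searched by its letters on both strands. It was found in the windows of 12 genes, 44.4% of the 27, and in 8.18% of all 27025 promoters of that length. Among the 9292 tested genes with a promoter the share was 10.09%. With the stricter form, which asks for A or T at its sixth position, the shares were 40.7% of the 27 and 4.35% of all promoters. The stretches before the starts of Nfkb2, Nfkbia and Tnfaip3, a subunit and 2 inhibitors that feed back on NF-kB, are shown with every base that a match covers in capitals, so that overlapping matches and matches on the opposite strand form 1 run.
Nfkb2 (chr19:46304487-46304736, plus strand): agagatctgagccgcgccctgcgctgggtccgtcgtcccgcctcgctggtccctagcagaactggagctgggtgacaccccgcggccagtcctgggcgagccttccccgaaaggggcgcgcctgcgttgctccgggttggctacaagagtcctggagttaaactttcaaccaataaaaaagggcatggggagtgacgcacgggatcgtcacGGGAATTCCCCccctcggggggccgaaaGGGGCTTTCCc
Nfkbia (chr12:55492648-55492897, minus strand): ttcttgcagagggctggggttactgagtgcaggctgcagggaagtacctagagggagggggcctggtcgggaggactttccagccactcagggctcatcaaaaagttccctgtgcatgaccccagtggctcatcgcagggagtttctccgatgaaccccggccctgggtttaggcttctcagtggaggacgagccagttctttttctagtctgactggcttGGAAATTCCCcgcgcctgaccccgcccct
Tnfaip3 (chr10:19015411-19015660, minus strand): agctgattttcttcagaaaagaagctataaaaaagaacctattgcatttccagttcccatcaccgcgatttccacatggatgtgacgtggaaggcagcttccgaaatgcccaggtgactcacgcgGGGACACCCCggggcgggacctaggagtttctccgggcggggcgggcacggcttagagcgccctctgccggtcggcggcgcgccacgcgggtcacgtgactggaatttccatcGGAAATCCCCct
The matches began 39, 38 and 11 bases before the RefSeq start of Nfkb2, 29 bases before that of Nfkbia, and 125 and 12 bases before that of Tnfaip3. By the GENCODE coordinates Nfkb2 starts farther upstream, at 46304320, and so does Tnfaip3, at 19015657. Their matches thus lie within the genes as annotated there, and so do those of Tank, Tnip3, Sod2 and Tnfaip2. Shorter stretches around the match show how the motif looks in 7 more of the genes, among them Cyld, which rose by 0.28 with LP 3M PIC.
Rel (chr11:23771036-23771076, minus strand): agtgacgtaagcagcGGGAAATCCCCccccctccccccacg
Nfkbie (chr17:45555579-45555618, plus strand): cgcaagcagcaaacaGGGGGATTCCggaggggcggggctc
Tnip1 (chr11:54962972-54963013, minus strand): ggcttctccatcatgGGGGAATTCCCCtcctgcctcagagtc
Tnip3 (chr6:65590329-65590368, plus strand): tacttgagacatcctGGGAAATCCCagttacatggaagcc
Sod2 (chr17:13007741-13007780, plus strand): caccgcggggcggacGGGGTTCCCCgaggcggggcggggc
Ier3 (chr17:35821606-35821645, plus strand): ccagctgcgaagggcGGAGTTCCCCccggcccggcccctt
Cyld (chr8:88696858-88696897, plus strand): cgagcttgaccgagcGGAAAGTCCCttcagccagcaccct
Tank and Tnfaip2 also held a match. The 12 genes with a match had a median log2 change against LP of 1.93 with LP 3M PIC, 1.26 with LP 3M and 1.28 with LP PIC. For the 15 genes whose window held none, the medians were 1.63 with LP 3M PIC, 0.78 with LP 3M and 0.57 with LP PIC. The ranges overlapped: with LP 3M PIC the changes ran from 0.28 to 4.59 in genes with a match and from −0.09 to 4.40 in genes without, with LP 3M from 0.06 to 3.89 and from −0.34 to 2.84, and with LP PIC from −0.04 to 3.00 and from −0.05 to 3.13. A match describes the letters of the window and does not show that NF-kB bound there.

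With the dual formulation nearly all of these genes were higher than with the lipoparticle alone. Against LP, 32 of 33 genes were called higher with LP 3M PIC and none lower, where 31.7% of all tested genes were called higher, 30.6% lower and 62.2% in either direction. The median change was 1.63 over the 33 genes and 0.02 over all tested genes, and 25 of the 33 were higher by at least 1 on the log2 scale, as were 9.69% of all. In 28 genes every LP 3M PIC library lay above every LP library, which held for 17.7% of all tested genes. LP 3M gave 24 genes called higher and 1 lower, where 20% of all tested genes were called higher, 19.5% lower and 39.5% either way. The median change with LP 3M was 1.08, 17 genes were higher by at least 1 (5.23% of all), and 23 lay above LP without overlap (10% of all). LP PIC gave 22 genes called higher and none lower, where 22.7% of all tested genes were called higher, 22.7% lower and 45.5% either way. The median change with LP PIC was 0.87, 15 genes were higher by at least 1 (6.2% of all), and 23 lay above LP without overlap (14.7% of all). In the comparisons of LP 3M PIC and of LP PIC with LP, the number lower was 0 with edgeR at an unadjusted p under 0.05 and with DESeq2 as well. These 3 comparisons share the same 5 LP libraries. Both single formulations raised 20 of the genes, where 9.31% of all tested genes were called higher with both. Another 4 (Rel, Map3k8, Tnip3 and Zc3h12a) were called higher with LP 3M and not called with LP PIC (9.03% of all), and 2 (Rela and Birc2) were called higher with LP PIC and not called with LP 3M (12.5% of all). Of these 6 all but Rel (adjusted p = 0.0727) also differed between LP 3M and LP PIC in the direct test. Against LP neither single formulation was called for Nfkbid, Ikbkb, Chuk, Ikbkg, Cyld and Gadd45b, as held for 36.9% of all tested genes.

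**Figure D1:**
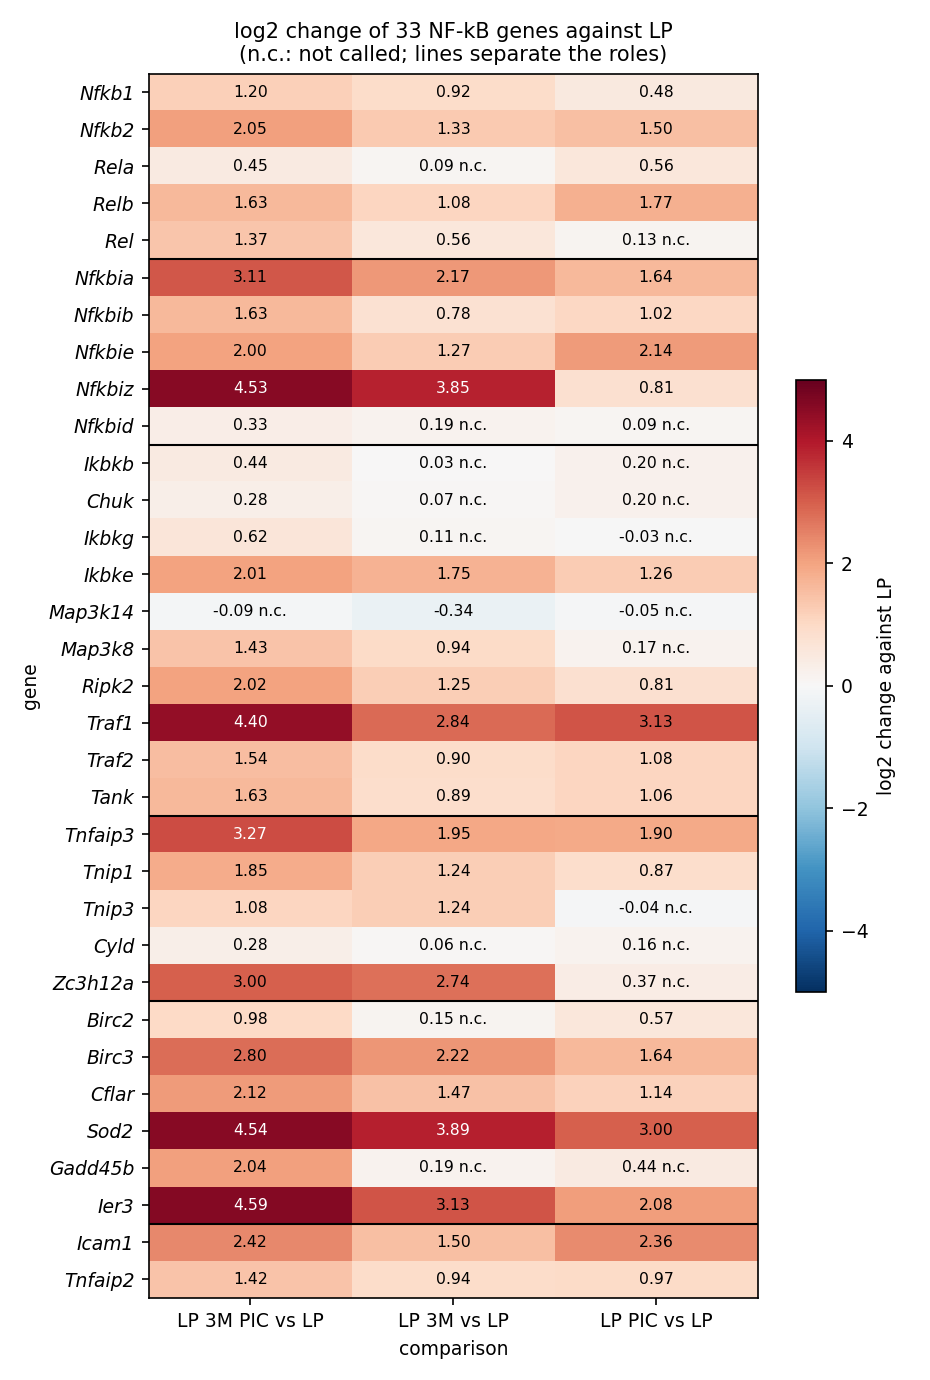
log2 change of each of the 33 genes (rows, by role) against LP with LP 3M PIC, LP 3M and LP PIC (columns), with colour and printed value for the change and n.c. for genes that were not called. The LP 3M PIC column holds 32 called rises, from 0.28 for Cyld and Chuk to 4.59 for Ier3, and Map3k14 is the 1 gene not called there.

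All 5 subunit genes rose with the dual formulation, where 31.7% of all tested genes were called higher, and the increase was unequal among them. Nfkb2 encodes p100, the precursor of p52 and an inhibitor of RelB-containing dimers. In mice 1 to 5 Nfkb2 stood at 279, 245, 329.7, 324 and 251 CPM with LP 3M PIC and at 178, 165, 196, 177 and 149 CPM with LP 3M. It stood at 228, 218, 179, 235 and 161 CPM with LP PIC and at 78.5, 71.2, 77.8, 78.5 and 66.1 CPM with LP. The LP 3M PIC libraries were the highest and the LP libraries the lowest without overlap, while the ranges of LP 3M and LP PIC overlapped. The change against LP was 2.05 ± 0.12 with LP 3M PIC (adjusted p = 8.68e-11), 1.33 ± 0.12 with LP 3M and 1.50 ± 0.12 with LP PIC.

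Relb, the partner of p52 in the non-canonical pathway, had 98.8, 91.8, 132, 120.4 and 138 CPM with LP 3M PIC and 69.3, 72.9, 84.4, 81.0 and 89.2 CPM with LP 3M. With LP PIC it had 135, 136, 118, 152 and 125 CPM and with LP 37.8, 38.5, 41.5, 43.6 and 40.2 CPM. Every library with an adjuvant was above every LP library, and every LP PIC library above every LP 3M library. Relb was 1.63 ± 0.10 higher than LP with LP 3M PIC, 1.08 ± 0.10 with LP 3M and 1.77 ± 0.10 with LP PIC, the last 2 with adjusted p of 1.38e-07 and 6.27e-10. Nfkb1, which encodes p105, the precursor of p50, averaged 273 ± 26.7 CPM with LP 3M PIC, 226 ± 25.8 with LP 3M, 174 ± 9.34 with LP PIC and 129 ± 4.21 with LP (SD, n = 5). Its groups with LP 3M, LP PIC and LP did not overlap, and it rose by 1.20, 0.92 and 0.48 with LP 3M PIC, LP 3M and LP PIC.

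Rela encodes p65, the main activating subunit. The 5 mice had 143, 149.6, 167, 166 and 176 CPM of Rela with LP 3M PIC and 116, 115, 133, 124 and 136 with LP 3M. The values were 179, 189.5, 178, 190.3 and 172 CPM with LP PIC and 126, 115, 130.4, 134 and 127 with LP. Here LP PIC was the highest condition on average, and LP 3M and LP overlapped. Rela rose by 0.45 ± 0.06 with LP 3M PIC (adjusted p = 5.97e-06) and by 0.56 ± 0.06 with LP PIC (adjusted p = 9.4e-07), and the difference between LP 3M and LP was 0.09 ± 0.06 (95% interval −0.05 to 0.22, adjusted p = 0.291).

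Rel, the c-Rel subunit, was the scarcest of the 5 per transcript length. Its levels were 30.5, 28.2, 32.1, 31.5 and 18.1 CPM with LP 3M PIC and 11.5, 12.7, 20.1, 18.8 and 17.4 with LP 3M. With LP PIC they were 12.1, 16.7, 12.9, 7.63 and 13.1 CPM and with LP 9.67, 10.9, 10.4, 14.4 and 13.2 CPM. All 5 LP 3M PIC libraries were above all LP libraries, the lowest being that of mouse 5, and the ranges of LP 3M, LP PIC and LP overlapped. The change was 1.37 ± 0.20 with LP 3M PIC (adjusted p = 6.74e-06) and 0.56 ± 0.20 with LP 3M (adjusted p = 0.0283). The LP 3M call on Rel was lost without mouse 1 (adjusted p = 0.0569), without mouse 3 (0.181), without the LP library of mouse 2 (0.0574) and with plain library totals (0.0734). With LP PIC the change in Rel was 0.13 ± 0.20 (95% interval −0.29 to 0.54).

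Levels of different genes were compared per kb of the principal transcript. With LP 3M PIC Nfkb2 stood at 91.0 ± 12.7 CPM per kb, Nfkb1 at 66.3 ± 6.47, Rela at 59.0 ± 4.98, Relb at 52.6 ± 9.17 and Rel at 3.76 ± 0.771. With LP the order was Rela at 46.6 ± 2.65 CPM per kb, Nfkb1 at 31.2 ± 1.02, Nfkb2 at 23.7 ± 1.78, Relb at 18.2 ± 1.06 and Rel at 1.57 ± 0.272 (SD, n = 5). By this length Nfkb2 was thus the first of the subunit levels with the dual formulation and the third with the lipoparticle alone. With LP 3M PIC the ranges of Nfkb1, Rela and Relb overlapped, and with LP no neighbours in the order did. With lengths of all exons joined, Nfkb2 was again first with LP 3M PIC (62.3 ± 8.68 CPM per kb) and Rela first with LP (41.2 ± 2.34). But Nfkb1, whose joined exons are far longer than its principal transcript, fell below Relb with LP 3M PIC (22.6 ± 2.21 against 29.9 ± 5.21). With LP it fell below Nfkb2 (10.7 ± 0.349 against 16.2 ± 1.22), and its range overlapped that of Relb (10.4 ± 0.601). The place of Nfkb2 with LP thus depended on the length used.

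**Figure D2:**
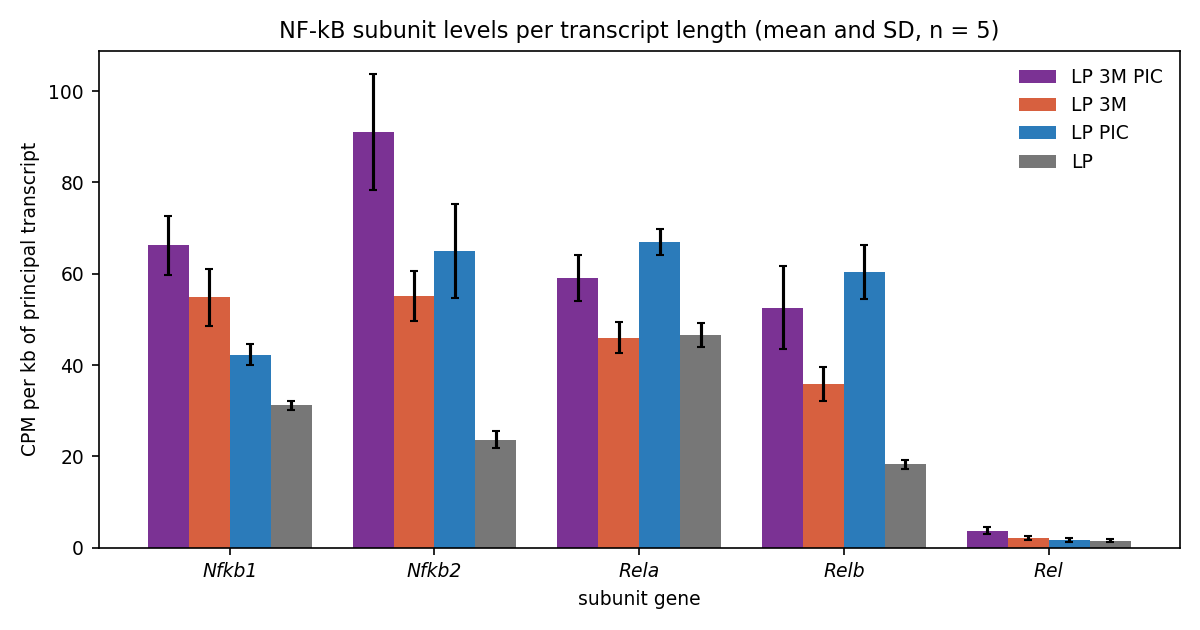
Level of each NF-kB subunit gene in CPM per kb of principal transcript (bars, mean; error bars, SD over 5 mice) with LP 3M PIC, LP 3M, LP PIC and LP. Nfkb2 reaches 91.0 ± 12.7 with LP 3M PIC and 23.7 ± 1.78 with LP, while Rela stays between 46.0 ± 3.42 with LP 3M and 66.9 ± 2.91 with LP PIC, and Rel is below 5 in every condition.

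Among the IkB genes, 5 of 5 rose with LP 3M PIC and 4 of 5 with each single formulation. Of all tested genes 31.7% were called higher with LP 3M PIC, 20% with LP 3M and 22.7% with LP PIC. Nfkbia encodes IkB-alpha, the inhibitor that is degraded first and made again by NF-kB itself. Its levels in mice 1 to 5 were 654, 650.1, 567, 688 and 383 CPM with LP 3M PIC and 373, 272, 332, 324 and 244 CPM with LP 3M. They were 234, 228, 168, 278 and 207 CPM with LP PIC and 70.7, 64.6, 81.5, 79.3 and 73.0 CPM with LP. The LP libraries lay apart from all others and those of LP 3M PIC above both single formulations, which overlapped each other. Nfkbia rose by 3.11 ± 0.18 with LP 3M PIC (adjusted p = 6.91e-11), 2.17 ± 0.17 with LP 3M and 1.64 ± 0.17 with LP PIC.

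Nfkbiz encodes IkB-zeta, a nuclear protein that helps NF-kB to switch on a second set of genes. It had 377, 394, 211, 331 and 165 CPM with LP 3M PIC and 237, 175, 182, 236 and 94.3 CPM with LP 3M. By comparison, it had 24.5, 27.0, 19.0, 24.6 and 23.2 CPM with LP PIC and 12.5, 14.6, 14.5, 16.3 and 11.5 CPM with LP. Both conditions with 3M lay far above both without it, and the lowest LP PIC library was still above the highest LP library. The rise was 4.53 ± 0.28 with LP 3M PIC (adjusted p = 3.29e-10), 3.85 ± 0.28 with LP 3M and 0.81 ± 0.25 with LP PIC (adjusted p = 0.0142).

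Nfkbie, the gene of IkB-epsilon, was higher with LP PIC than with LP 3M. It had 65.3, 59.2, 112, 95.8 and 110.3 CPM with LP 3M PIC and 46.7, 43.4, 63.1, 45.6 and 68.6 CPM with LP 3M. The LP PIC libraries had 126, 118, 74.7, 133 and 57.6 CPM and the LP libraries 28.7, 22.0, 23.6, 24.9 and 19.8 CPM. The spread between mice was wide, and mice 3 and 5 were the highest with LP 3M PIC and the lowest with LP PIC. Nfkbie rose by 2.00 ± 0.23 with LP 3M PIC, 1.27 ± 0.23 with LP 3M and 2.14 ± 0.23 with LP PIC (adjusted p = 6.97e-07). Nfkbib, the gene of IkB-beta, rose by 1.63, 0.78 and 1.02 with LP 3M PIC, LP 3M and LP PIC, with 122 ± 7.04 CPM with LP 3M PIC and 42.4 ± 3.97 with LP. Nfkbid, the gene of the nuclear protein IkBNS, moved least of this role: 34.0 ± 2.09 CPM with LP 3M PIC and 29.1 ± 2.33 with LP, a change of 0.33 ± 0.12 (adjusted p = 0.0182). That call was lost without mouse 4 (adjusted p = 0.0589), without the LP library of mouse 2 (0.0518) and with plain library totals (0.119).

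Of 10 kinase, adaptor and related genes, 9 rose with LP 3M PIC, 6 with LP 3M and 5 with LP PIC. The shares of all tested genes called higher were 31.7%, 20% and 22.7% in the same order. The genes of the core IkB kinase complex moved little. Ikbkb, the catalytic subunit of the canonical pathway, averaged 142 ± 24.6 CPM with LP 3M PIC and 113 ± 6.22 with LP, a rise of 0.44 ± 0.09 (adjusted p = 0.000217). Ikbkg, the gene of the scaffold NEMO, rose by 0.62 ± 0.10 with LP 3M PIC (103 ± 9.05 CPM against 72.7 ± 12.5 with LP), and its estimates were 0.11 with LP 3M and −0.03 with LP PIC, neither called. Chuk, the other catalytic subunit, rose by 0.28 ± 0.10 with LP 3M PIC (adjusted p = 0.0188). The call on Chuk was lost without mouse 1 (adjusted p = 0.0841), mouse 3 (0.0523) or mouse 4 (0.0917) and with plain library totals (0.171). Ikbkb with LP PIC against LP was not called (adjusted p = 0.0689), but was when mouse was a replicate block (adjusted p = 0.0378). Ikbkg shares 418 exon bases, 5.15% of its exons, with G6pdx on the opposite strand. No source used here gives the strand setting of the counting, so reads there may belong to either gene.

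Ikbke encodes the related kinase IKK-epsilon, which also acts in interferon induction. In mice 1 to 5 it had 444, 411, 403, 418 and 330.4 CPM with LP 3M PIC and 299.9, 288, 365, 412 and 308 with LP 3M. The LP PIC libraries had 249, 239.6, 231, 299.9 and 229 CPM and the LP libraries 98.2, 98.9, 125, 120.4 and 94.0 CPM. LP was apart from all the others, LP 3M PIC overlapped LP 3M, and mouse 5 was the lowest with LP 3M PIC, LP PIC and LP. The rise of Ikbke was 2.01 ± 0.13 with LP 3M PIC, 1.75 ± 0.13 with LP 3M and 1.26 ± 0.13 with LP PIC (largest adjusted p = 1.63e-07).

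Traf1, an adaptor that stabilises TNF receptor complexes and is itself a target of NF-kB, had the largest rise of this role. Its levels were 339, 287, 472, 459 and 297 CPM with LP 3M PIC and 152, 119, 170.2, 129.9 and 58.4 with LP 3M. With LP PIC they were 192, 176, 120.4, 224 and 95.9 CPM, against 20.0, 18.4, 20.0, 21.2 and 15.4 CPM with LP. LP 3M PIC was apart from both single formulations, these overlapped, and LP was far below. Traf1 rose by 4.40 ± 0.30 with LP 3M PIC, 2.84 ± 0.28 with LP 3M and 3.13 ± 0.28 with LP PIC (largest adjusted p = 4.17e-07). Traf2, the adaptor that brings the cIAP ligases to TNF receptors, rose by 1.54, 0.90 and 1.08, and Tank, a TRAF-binding scaffold, by 1.63, 0.89 and 1.06, with LP 3M PIC, LP 3M and LP PIC. Ripk2, the kinase of the NOD receptors, rose by 2.02, 1.25 and 0.81 in the same order.

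Map3k8 encodes TPL2, the kinase that p105 holds and that drives ERK signalling. It averaged 39.2 ± 5.85 CPM with LP 3M PIC, 28.1 ± 3.17 with LP 3M, 17.2 ± 0.995 with LP PIC and 15.7 ± 2.11 with LP. Map3k8 rose by 1.43 ± 0.11 with LP 3M PIC and 0.94 ± 0.11 with LP 3M, and with LP PIC the estimate was 0.17 ± 0.11 (95% interval −0.07 to 0.41, adjusted p = 0.239). Map3k14 encodes NIK, the kinase that starts the non-canonical pathway and is controlled mostly through protein turnover. It had 25.0, 21.6, 28.5, 29.5 and 27.1 CPM with LP 3M PIC and 22.1, 21.9, 24.0, 23.7 and 19.5 with LP 3M. The values were 33.6, 24.5, 29.8, 25.2 and 28.6 CPM with LP PIC and 30.0, 29.4, 34.0, 29.3 and 28.6 with LP. Every LP 3M library was below every LP and every LP PIC library. Map3k14 was the 1 gene of the 33 called lower against LP in any comparison: it fell by 0.34 ± 0.10 on the log2 scale with LP 3M (adjusted p = 0.0119), and with LP 3M PIC the estimate was −0.09 ± 0.10 (95% interval −0.31 to 0.12).

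All 5 feedback inhibitors rose with LP 3M PIC, 4 with LP 3M and 2 with LP PIC. The shares of all tested genes called higher were 31.7%, 20% and 22.7% in the same order. Tnfaip3 encodes A20, a ubiquitin-editing enzyme that ends signalling to the IkB kinases. Its levels were 407, 465, 360.0, 423 and 283 CPM with LP 3M PIC and 164, 156, 164, 145 and 146 CPM with LP 3M. They were 173, 196, 124, 149 and 148 CPM with LP PIC and 51.9, 50.1, 33.9, 39.8 and 42.5 CPM with LP. The single formulations overlapped, and LP 3M PIC was above and LP below all of their libraries. Tnfaip3 rose by 3.27 ± 0.15 with LP 3M PIC, 1.95 ± 0.14 with LP 3M and 1.90 ± 0.14 with LP PIC (largest adjusted p = 6.75e-09).

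Zc3h12a encodes Regnase-1, an RNase that cuts cytokine mRNAs. The 5 mice had 284, 311, 209.9, 246 and 184 CPM with LP 3M PIC and 258, 215, 197, 201 and 161 CPM with LP 3M. They had 39.4, 45.8, 40.9, 36.8 and 46.8 CPM with LP PIC and 27.5, 31.6, 34.6, 32.8 and 40.4 CPM with LP. As with Nfkbiz, the conditions with 3M lay apart from those without it, here with LP PIC overlapping LP. The rise was 3.00 ± 0.16 with LP 3M PIC and 2.74 ± 0.16 with LP 3M, and LP PIC differed from LP by 0.37 ± 0.15 (adjusted p = 0.0511), higher in 5 of 5 mice but not called. That comparison was called by DESeq2, without mouse 5, without the LP 3M library of mouse 5 and with only the groups compared in the fit (lowest adjusted p = 0.00987).

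Tnip1 and Tnip3 encode ABIN proteins, which bind A20 and ubiquitin. Tnip1 rose by 1.85 ± 0.13 with LP 3M PIC (666 ± 75.2 CPM against 199 ± 36.3 with LP), 1.24 ± 0.13 with LP 3M and 0.87 ± 0.12 with LP PIC. Tnip3 had 130.2, 124, 78.6, 91.8 and 63.6 CPM with LP 3M PIC and 113, 112, 93.9, 137 and 92.6 with LP 3M. With LP PIC it had 55.9, 50.2, 47.0, 50.8 and 32.8 CPM and with LP 70.9, 58.0, 36.8, 55.7 and 30.7 CPM. LP 3M lay above LP and LP PIC without overlap, whereas LP 3M PIC overlapped LP by the LP library of mouse 1. Tnip3 rose by 1.24 ± 0.23 with LP 3M and 1.08 ± 0.23 with LP 3M PIC, and with LP PIC the difference from LP was −0.04 ± 0.23 (95% interval −0.52 to 0.44). Cyld, a deubiquitinase, had 60.9 ± 10.3 CPM with LP 3M PIC and 54.4 ± 1.54 with LP and was called at 0.28 ± 0.10 (adjusted p = 0.0261), higher in 3 of 5 mice. The Cyld call was lost without mouse 1 (adjusted p = 0.0541), mouse 3 (0.168) or mouse 4 (0.118), without the LP 3M PIC library of mouse 3 (0.0987) and with plain library totals (0.202).

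All 6 survival genes rose with LP 3M PIC, 4 with LP 3M and 5 with LP PIC. The shares of all tested genes called higher were 31.7%, 20% and 22.7% in the same order. Sod2, the manganese superoxide dismutase of mitochondria, is a long-known target of NF-kB. It had 1795, 1871, 1482, 1770 and 1489 CPM with LP 3M PIC and 1252, 1166, 1124, 1031 and 776 CPM with LP 3M. It had 670.0, 679, 466, 779 and 452 CPM with LP PIC and 70.9, 65.4, 89.2, 76.8 and 87.7 CPM with LP. LP 3M PIC was above every other library, the single formulations overlapped through the LP 3M library of mouse 5, and LP was far below. Sod2 rose by 4.54 ± 0.19 with LP 3M PIC (adjusted p = 1.9e-12), 3.89 ± 0.18 with LP 3M and 3.00 ± 0.17 with LP PIC.

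Ier3, an early response gene with roles in cell survival, had 200.1, 237, 135, 218 and 119.8 CPM with LP 3M PIC and 113, 95.7, 48.0, 47.2 and 26.5 CPM with LP 3M. The levels were 32.8, 46.3, 27.7, 32.5 and 29.7 CPM with LP PIC and 6.39, 7.80, 9.81, 10.4 and 6.43 CPM with LP. The 4 conditions followed one another in this order on average, with an overlap between LP 3M and LP PIC. Its rise of 4.59 ± 0.37 with LP 3M PIC was the largest of the 33 genes, with 3.13 ± 0.35 for LP 3M and 2.08 ± 0.34 for LP PIC (largest adjusted p = 7.26e-05).

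Birc3 and Birc2 encode the cIAP ubiquitin ligases, which block death signalling at TNF receptors. Birc3 had 227, 271, 203, 224 and 172 CPM with LP 3M PIC and 174, 163, 147, 158 and 94.3 with LP 3M. With LP PIC it had 116, 117, 91.7, 109 and 83.5 CPM and with LP 33.2, 28.3, 37.5, 37.5 and 33.3 CPM. LP was apart from the rest, LP 3M PIC was above LP PIC without overlap, and LP 3M overlapped both of these. Birc3 rose by 2.80 ± 0.17 with LP 3M PIC, 2.22 ± 0.16 with LP 3M and 1.64 ± 0.16 with LP PIC. Birc2 rose by 0.98 ± 0.13 with LP 3M PIC (30.5 ± 3.29 CPM against 16.7 ± 1.03 with LP) and by 0.57 ± 0.13 with LP PIC, and the LP 3M estimate was 0.15 ± 0.13 (95% interval −0.13 to 0.44). Cflar, the gene of the caspase-8 inhibitor cFLIP, rose by 2.12 with LP 3M PIC, 1.47 with LP 3M and 1.14 with LP PIC.

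Gadd45b, a stress protein that restrains JNK signalling, was called with neither single formulation. It had 142, 115, 152, 142 and 87.6 CPM with LP 3M PIC and 48.7, 38.0, 35.0, 32.0 and 23.9 CPM with LP 3M. It had 42.9, 44.0, 36.4, 60.2 and 37.5 CPM with LP PIC and 43.2, 42.3, 24.2, 27.9 and 31.6 CPM with LP. The LP 3M PIC libraries stood apart from all others, and the remaining 3 conditions overlapped. The rise with LP 3M PIC was 2.04 ± 0.21 (adjusted p = 1.74e-07), and the estimates were 0.19 ± 0.21 with LP 3M (adjusted p = 0.485) and 0.44 ± 0.21 with LP PIC (adjusted p = 0.093). With mouse as a replicate block, the LP PIC estimate was called (adjusted p = 0.0451).

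Icam1, the adhesion molecule that leukocyte integrins bind, and Tnfaip2, a protein of membrane tubes, are targets outside these roles. The Icam1 levels were 376, 260.2, 617, 575 and 515 CPM with LP 3M PIC and 202, 186, 322, 282 and 254 CPM with LP 3M. They were 560.1, 519.8, 333, 620.4 and 328 CPM with LP PIC and 104, 86.8, 99.6, 93.7 and 87.8 CPM with LP. LP 3M PIC and LP PIC overlapped widely, every LP PIC library lay above every LP 3M library, and mice 3 and 5 were low with LP PIC but not with LP 3M PIC. Icam1 rose by 2.42 ± 0.23 with LP 3M PIC, 1.50 ± 0.22 with LP 3M and 2.36 ± 0.23 with LP PIC. Tnfaip2 rose by 1.42 ± 0.15 with LP 3M PIC (1099 ± 263 CPM against 442 ± 62.2 with LP), 0.94 ± 0.15 with LP 3M and 0.97 ± 0.15 with LP PIC.

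**Figure D3:**
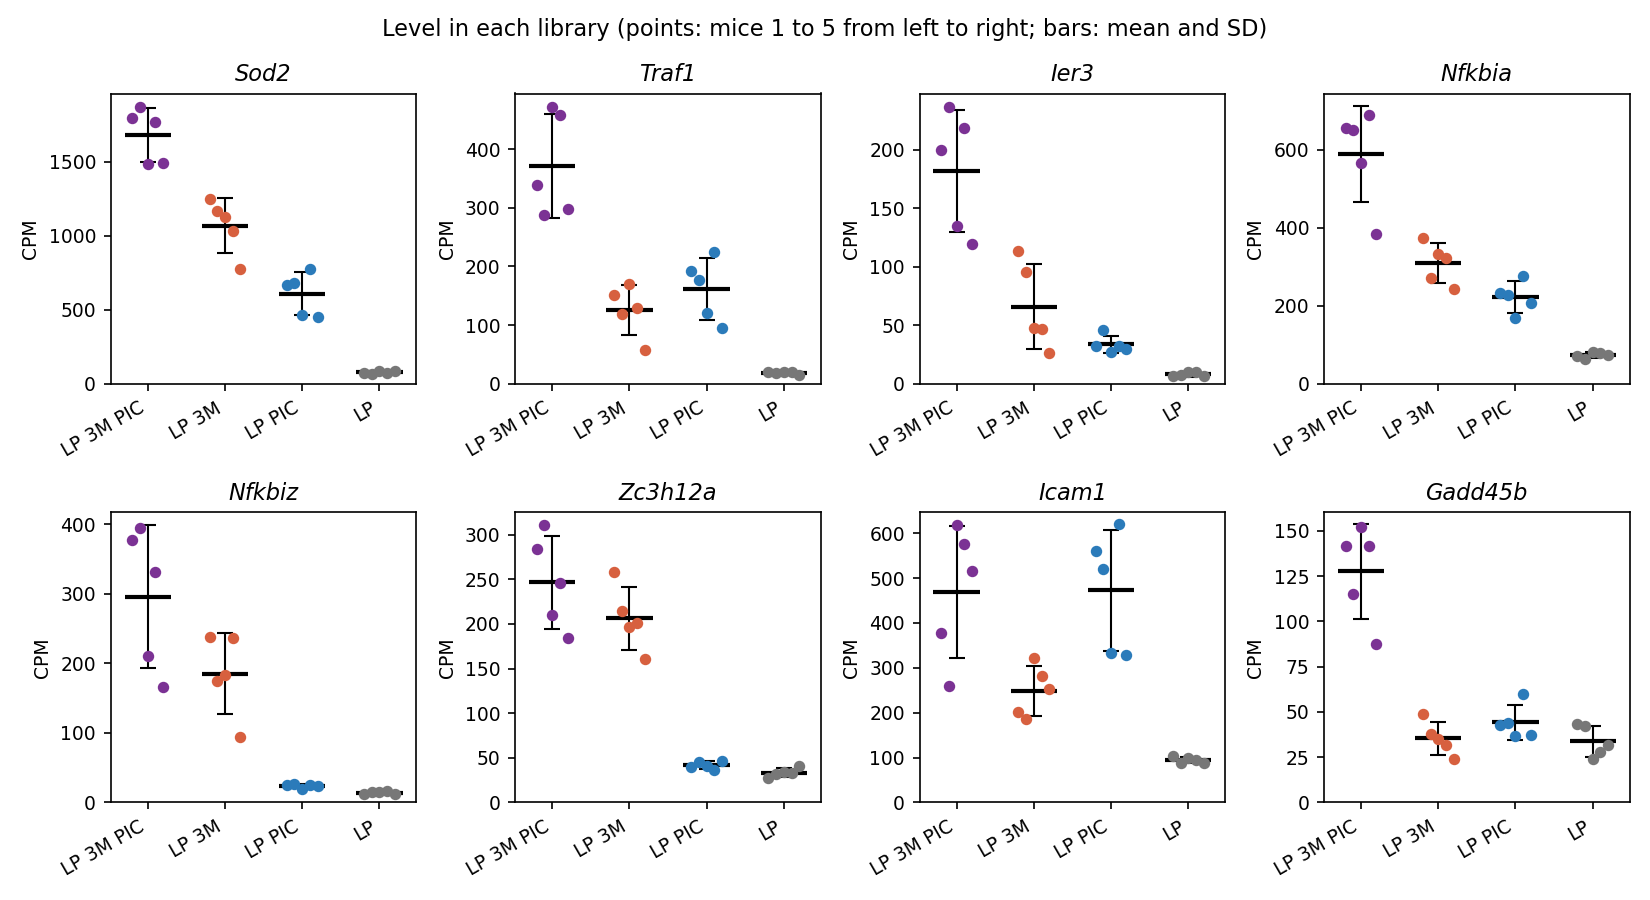
Level in CPM of 8 genes in each library (points, mice 1 to 5 from left to right; bars, mean and SD, n = 5) with LP 3M PIC, LP 3M, LP PIC and LP. Nfkbiz and Zc3h12a are high in both conditions with 3M, Icam1 overlaps widely between LP 3M PIC and LP PIC, and Gadd45b is high with LP 3M PIC alone (128 ± 26.3 CPM, against 44.2 ± 9.52 with LP PIC).

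The single formulations differed in which of these genes they raised most. Between LP 3M and LP PIC 19 of 33 genes (57.6%) were called, 12 higher and 7 lower with LP 3M. This was not far from the share of all tested genes, of which 24.4% were higher, 22.7% lower and 47.1% called either way. The median difference was 0.04. Without mouse 1, with fewer libraries in the fit, the number called was 13 of 33. The share of all tested genes in that fit is not given here. Nfkbiz stood at 3.04 above LP PIC (95% interval 2.48 to 3.60), Zc3h12a at 2.37 (adjusted p = 8.44e-09), and Tnip3 at 1.28 ± 0.23 (adjusted p = 0.000188). Ier3, Sod2, Map3k8, Birc3, Nfkbia, Ikbke, Ripk2, Nfkb1 and Tnip1 were also higher with LP 3M, from 0.37 for Tnip1 to 1.05 for Ier3. On the other side Nfkbie fell by 0.87 ± 0.22 (adjusted p = 0.00384), Icam1 by 0.86 ± 0.22 (adjusted p = 0.00353), Relb by 0.69 ± 0.10 (adjusted p = 1.87e-05) and Rela by 0.48 ± 0.06 (adjusted p = 9.61e-06) on the log2 scale with LP 3M relative to LP PIC. Birc2 (0.42), Map3k14 (0.28) and Nfkbib (0.25) fell less.

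Several of the smaller differences between LP 3M and LP PIC were no longer called when 1 mouse was left out. Such fits hold fewer libraries, so a lost call need not mean that the difference rested on that mouse. Without mouse 1 the calls on Ier3 (0.74, adjusted p = 0.0863), Nfkbia (0.47, 0.062), Tnip1 (0.31, 0.0938), Birc2 (−0.28, 0.126) and Map3k14 (−0.22, 0.136) were lost. Nfkbia was also lost without mouse 3 (0.0778), Tnip1 without mouse 4 (0.0718), Birc2 without mouse 2 (0.0675), Ripk2 without mouse 3 (0.0711) or mouse 5 (0.0582) or with plain library totals (0.0522), and Map3k14 without mouse 5 (0.115) or its LP 3M library (0.0695). The call on Nfkbib held under 6 of 14 alternatives and was lost without any of mice 1, 2, 4 and 5 (adjusted p up to 0.245). Tnfaip3 differed by 0.04 (95% interval −0.24 to 0.33), Nfkb2 by −0.17 (−0.42 to 0.07) and Traf1 by −0.29 (−0.83 to 0.25), none of them called. Cflar was not called (adjusted p = 0.0582) but was higher with LP 3M with mouse as a replicate block (adjusted p = 0.0148).

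**Figure D4:**
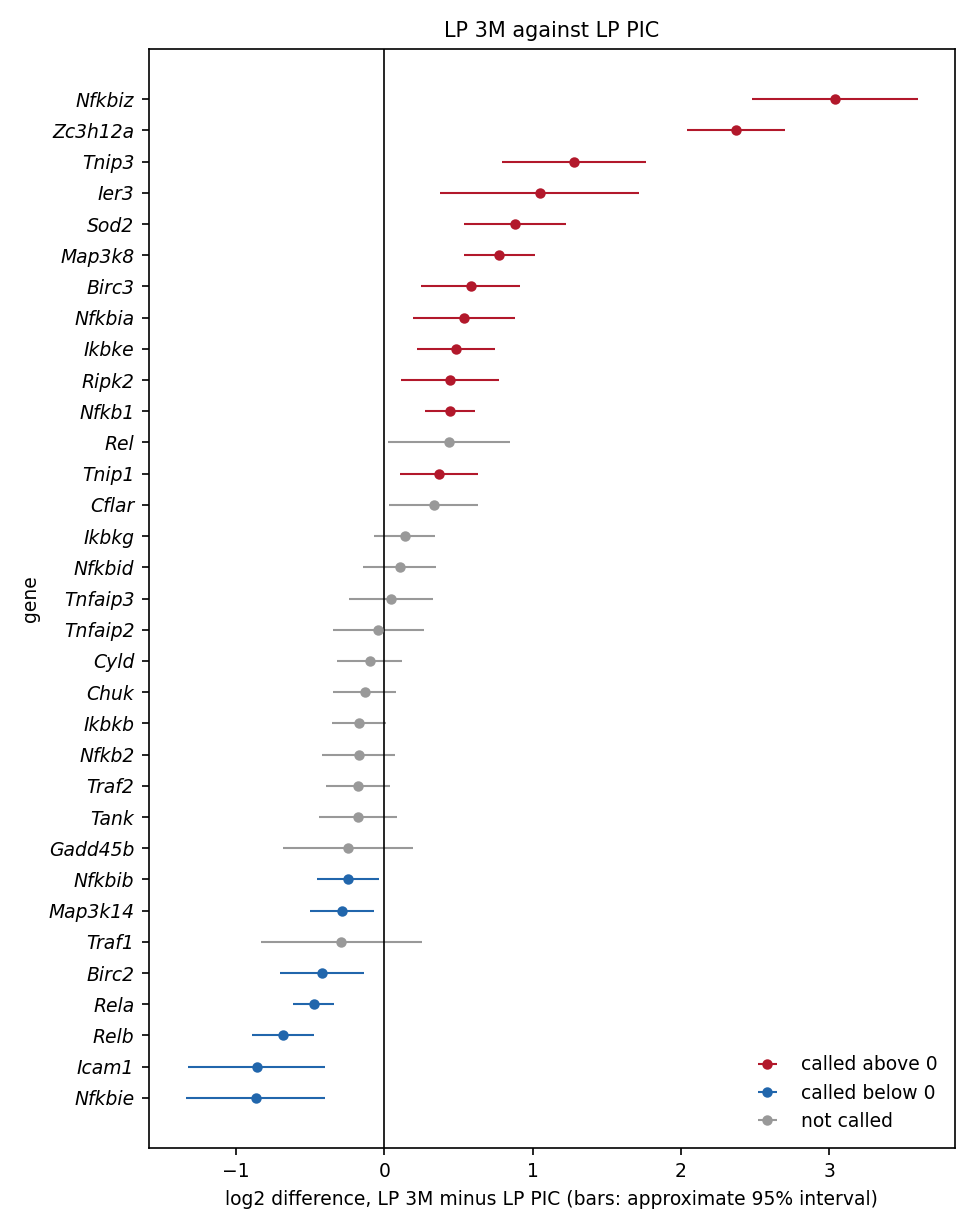
log2 difference of each gene between LP 3M and LP PIC (points; bars, approximate 95% interval from the SE), ordered by size, with genes called above 0, called below 0 and not called in separate colours. Nfkbiz at 3.04 and Zc3h12a at 2.37 stand above the rest, and Nfkbie and Icam1 are the lowest at −0.87 and −0.86.

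With the dual formulation 22 of the 33 genes were called higher than with each single one, as were 8.56% of all tested genes. Against LP 3M, 26 genes were called higher with LP 3M PIC and none lower (20.5% of all tested genes higher, 21% lower, 41.5% called), with a median difference of 0.64. Gadd45b led with 1.85 ± 0.21 (adjusted p = 4.35e-06), before Traf1 with 1.55 ± 0.26, Ier3 with 1.46 ± 0.32 and Tnfaip3 with 1.33 ± 0.14. Zc3h12a (0.26 ± 0.15, 95% interval −0.05 to 0.57) and Tnip3 (−0.16 ± 0.22, −0.63 to 0.32) were not called. Nfkbid and Cyld were not called either, though Cyld was without mouse 5 (adjusted p = 0.0407). Nor were Ikbke, Chuk and Map3k14, all of which were called higher with mouse as a replicate block (adjusted p = 0.0179, 0.0496 and 0.0258). Nfkbiz was called at 0.68 ± 0.24 (adjusted p = 0.031) but not without mouse 1 (0.0637), mouse 2 (0.157), mouse 4 (0.0637) or the LP 3M library of mouse 5 (0.0701), with no filter on low counts (0.0504) and with only the groups compared in the fit (0.109). Nfkb1 was lost without mouse 1 (0.0527), Nfkbie without mouse 4 (0.0702), and Tnfaip2 without mouse 4 (0.0565) or mouse 5 (0.0579).

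Against LP PIC, 25 genes were called higher with LP 3M PIC and none lower (23.1% of all tested genes higher, 21.4% lower, 44.5% called), with a median difference of 0.72. In this and the previous comparison the number lower was 0 with edgeR at an unadjusted p under 0.05 and with DESeq2 too. The largest differences were those of Nfkbiz at 3.72 ± 0.27, Zc3h12a at 2.63 ± 0.16, Ier3 at 2.51 ± 0.33, Gadd45b at 1.60 ± 0.21 and Sod2 at 1.54 ± 0.16. No difference was called for Icam1 (0.05, 95% interval −0.41 to 0.51), Relb (−0.13, −0.34 to 0.07), Rela (−0.11, −0.25 to 0.02) and Nfkbie (−0.14, −0.61 to 0.33). Nfkbid, Chuk, Map3k14 and Cyld were not called either, though Nfkbid was with only the groups compared in the fit (adjusted p = 0.00884). Under plain library totals Rela was called lower with LP 3M PIC than with LP PIC (adjusted p = 0.0326). Calls on Ikbkb, Birc2 and Tnfaip2 were lost without single mice, Birc2 without mouse 3 (0.111), Ikbkb without mouse 1 (0.0631), mouse 3 (0.179) or mouse 4 (0.191) and with plain library totals (0.121), and Tnfaip2 without mouse 3 (0.0936), mouse 4 (0.11) or mouse 5 (0.105). The Ikbkb call held under 7 of 14 alternatives.

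The dual effect was then set against the sum of the single effects on the log2 scale, the interaction. On this scale 0 means that the fold changes of the single formulations multiply, not that their rises in CPM add up. The interaction reads as more or less than that only if the dual formulation holds the same amount of each adjuvant as the single ones. Of the 33 genes 10 were called, 8 below and 2 above 0, where 8.43% of all tested genes were called, 4.62% below and 3.82% above. The median was −0.20 over the 33 genes and 0.001 over all tested genes. The estimate lay below 0 for 23 of the 33, which was not counted over all tested genes. The calls on Sod2, Relb and Ikbke held under all 13 alternatives. Sod2 had the lowest interaction of the 33 genes: its single log2 effects sum to 6.89, its dual effect was 4.54, and the interaction was −2.35 ± 0.23 (adjusted p = 9.71e-06). In CPM Sod2 averaged 1681 with LP 3M PIC, 1070 with LP 3M, 609 with LP PIC and 78.0 with LP. A log2 interaction below 0 thus need not be a shortfall in CPM. Relb had a dual effect of 1.63 and a sum of 2.85 (−1.22 ± 0.14, adjusted p = 3.24e-05), and Ikbke with 2.01 and 3.00 (−0.99 ± 0.17, adjusted p = 0.00236).

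The other calls below 0 were Traf1 (−1.58 ± 0.37), Icam1 (−1.45 ± 0.31), Nfkbie (−1.41 ± 0.32), Birc3 (−1.06 ± 0.22) and Nfkb2 (−0.77 ± 0.16). Gadd45b lay above 0, with a dual effect of 2.04 and a sum of 0.63 (1.41 ± 0.29, adjusted p = 0.00686), as did Ikbkg (0.54 ± 0.14, adjusted p = 0.0215). Without mouse 1 the calls on Nfkb2 (adjusted p = 0.0814), Nfkbie (0.0706), Ikbkg (0.126), Traf1 (0.119), Birc3 (0.0826) and Icam1 (0.0649) were lost. Without mouse 2 those on Nfkb2 (0.064), Nfkbie (0.0602), Ikbkg (0.1), Traf1 (0.0835) and Gadd45b (0.0506) were lost, and without mouse 4 those on Nfkbie (0.0656), Ikbkg (0.0771), Traf1 (0.0693), Birc3 (0.0596) and Icam1 (0.0591). Ikbkg was lost without mouse 3 too (0.0508). The number of genes called was 4 without mouse 1, 5 without mouse 2 and 5 without mouse 4. With mouse as a replicate block it was 13, with Nfkbia (blocked −0.697, adjusted p = 0.0255 against 0.0669 unblocked), Traf2 (−0.425, 0.0156 against 0.0692) and Tnfaip3 (−0.59, 0.0108 against 0.0684) added. For Nfkbiz and Zc3h12a, which were high with LP 3M PIC and LP 3M, the interaction was −0.13 (95% interval −0.87 to 0.61) and −0.11 (−0.55 to 0.34).

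**Figure D5:**
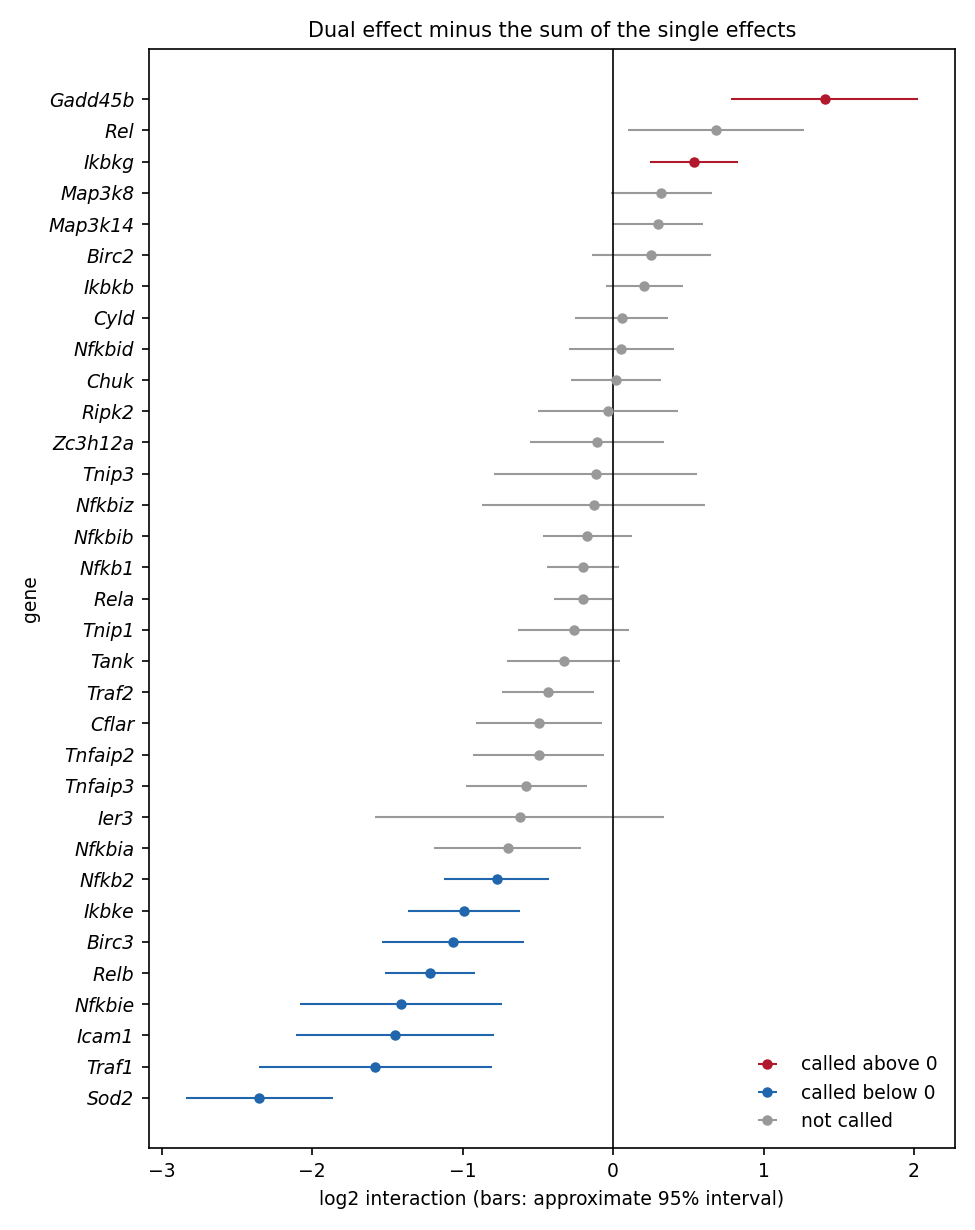
Interaction of each gene, the log2 effect of LP 3M PIC minus the sum of the log2 effects of LP 3M and LP PIC (points; bars, approximate 95% interval from the SE), ordered by size, with genes called above 0, called below 0 and not called in separate colours. Sod2 lies lowest at −2.35 and Gadd45b highest at 1.41.

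The mice differed in how high these genes stood. With LP 3M PIC mouse 5 was the lowest of the 5 mice for 19 of the 33 genes, with LP 3M for 16, with LP PIC for 18 and with LP for 10. Mouse 3 was the highest for 12 genes with LP 3M PIC and for 13 with LP 3M, whereas with LP PIC mouse 4 was the highest for 16 and mouse 3 for none. These ranks are of CPM with plain library totals. The same ranks were not counted over all tested genes, so whether they are particular to these genes was not tested.

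Some markers of other cell types moved with the formulations. The summed level of 9 neutrophil markers ran from 99.3 to 757 CPM with LP 3M PIC, 70.7 to 119 with LP 3M, 64.1 to 122 with LP PIC and 31.1 to 68.9 with LP. Most of it was Csf3r (up to 219.8 CPM) and S100a8 (up to 536 CPM), whereas Retnlg had no count in any library and Elane, Mpo and Cxcr2 reached at most 0.325 CPM. The 6 dendritic cell markers summed to 6.24 to 46.2 CPM with LP 3M PIC, 0.305 to 0.796 with LP 3M, 1.27 to 7.06 with LP PIC and 0 to 0.223 with LP, mostly Ccr7, while Flt3 stayed at or below 0.366 CPM and Xcr1 and Siglech near 0. The 6 fibroblast markers summed to a median of 38.0 CPM with LP 3M PIC, 37.2 with LP 3M, 36.0 with LP PIC and 37.7 with LP. Among them Dcn averaged 26.5 ± 30.9 CPM with LP 3M PIC, 22.5 ± 28.0 with LP 3M, 14.3 ± 14.2 with LP PIC and 1.33 ± 1.585 with LP, whereas Col1a1 averaged 9.67 ± 5.79 CPM with LP 3M PIC and 18.7 ± 9.63 with LP (SD, n = 5). The part of these markers in the results above was not tested.

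The wider pathway had a smaller median change than the 33 genes. Both lists were drawn up with earlier results of these data known, so this describes the lists and is no test. Of 47 further genes, from receptor adaptors to ubiquitin ligases, deubiquitinases and death inhibitors, 25 were called higher and 7 lower with LP 3M PIC against LP, with a median change of 0.24, where 31.7% of all tested genes were higher and 30.6% lower. With LP 3M 14 were higher and 5 lower, with a median of 0.05, where 20% of all tested genes were higher and 19.5% lower. With LP PIC 23 were higher and 6 lower, with a median of 0.215, where 22.7% of all tested genes were called each way. Malt1, a scaffold and protease of antigen receptor and C-type lectin signalling, averaged 413 ± 69.9 CPM with LP 3M PIC and 64.7 ± 10.4 CPM with LP, a rise of 2.79 ± 0.18 (adjusted p = 3.63e-10). Bcl3, an atypical IkB protein that binds p50 and p52 dimers, rose by 2.53 ± 0.19, and N4bp1, an inhibitor of NF-kB signalling, by 1.74 ± 0.11. Bcl2a1d and Bcl2a1b, copies of an anti-apoptotic gene, rose by 4.85 ± 0.33 and 1.72 ± 0.16, but their near-identical sequences make the split of reads between them uncertain.

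Peli1, a ubiquitin ligase of Toll-like receptor signalling, had 111 ± 23.1 CPM with LP 3M PIC, 24.0 ± 2.66 with LP 3M, 78.5 ± 9.79 with LP PIC and 30.3 ± 5.85 with LP (SD, n = 5). It thus stood high in both conditions with PIC, with a difference of −1.64 ± 0.16 between LP 3M and LP PIC (adjusted p = 2.89e-07) and a rise of 1.98 ± 0.16 with LP 3M PIC. Nlrc3, a NOD-like receptor that restrains inflammatory signalling, was the 1 further gene to fall by at least 1: it had 4.82 ± 4.27 CPM with LP 3M PIC and 19.3 ± 2.15 CPM with LP, and fell by 1.90 ± 0.42 on the log2 scale (adjusted p = 0.000617).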

How the data were processed

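Each library has 1 table in which the authors deposited raw, unnormalized read counts by gene. Tools named in the submitters' processing notes are STAR 2.7.11b, HTSeq 0.13.5, FastQC 0.11.1 and DESeq2 1.44.0, with build GRCm38, and no source used here gives the annotation. Per the labels' protocols, RNA was poly(A)-enriched and the library kit keeps strand. Reads in no single gene (7.14 to 9.72%) stayed out of library sizes. No 2 libraries agreed within sampling noise (lowest chi-squared per degree of freedom 7.46 over 190 pairs). Floors cover counting error only.

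Counts were fitted in R 4.3.3 with edgeR 4.0.16 (quasi-likelihood F-test, two-sided, robust, TMM scaling, 1 mean per condition), over the 12132 genes that filterByExpr kept (count minimum 10, total minimum 15). The fit was tested on simulated data with changes in LP 3M alone and no mouse effect. The interaction and the pairing by mouse were not covered. An SE was taken as the size of the log2 change over the root of its F value, and intervals use 16 residual degrees of freedom. The mouse id in the labels pairs the libraries: deviations from the condition means correlated with a median r of 0.40 (0.14 to 0.54) over 30 same-mouse pairs and of −0.15 between mice. Alternatives were mouse as a replicate block, DESeq2 1.42.0, other scalings, no filter, fewer groups and left-out libraries. Gene coordinates and lengths come from GENCODE M21 (GRCm38) and promoters from RefSeq. All 33 members are named. Of the further pathway genes, the text names the 6 with the smallest p for LP 3M PIC against LP and any called lower there by at least 1 on the log2 scale. Members and lists were chosen with earlier results of these data known.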

Additional observations from a re-analysis of the deposited data

Results flagged for a closer look

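Single libraries stood far from the other 4 of their condition in 4 of 132 groups of 5, where chance flags about 6.6. Rel had 18.15 CPM in the LP 3M PIC library of mouse 5, against 28.2 to 32.1 CPM in the others. Ikbke had 299.9 CPM in the LP PIC library of mouse 4, against 229 to 249 CPM. Ier3 had 46.34 CPM in the LP PIC library of mouse 2, against 27.7 to 32.8 CPM. Map3k14 had 33.95 CPM in the LP library of mouse 3, against 28.6 to 30.0 CPM.

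For 10 genes edgeR's test called the interaction on the log2 scale. It reads as an effect of 1 adjuvant that differs with the other only if single and dual formulations hold equal amounts. The labels do not give these amounts. The interaction was −2.35 for Sod2, −1.58 for Traf1, −1.45 for Icam1, −1.41 for Nfkbie, −1.22 for Relb, −1.06 for Birc3, −0.99 for Ikbke and −0.77 for Nfkb2. It was 1.41 for Gadd45b and 0.54 for Ikbkg. Only those of Relb, Ikbke and Sod2 were called under all 13 alternatives.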

How the results depend on the processing

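Counts here cover the 204 results named in the text, each 1 gene in 1 comparison. Of the 159 called, 134 kept direction and call in every alternative, 25 lost the call in at least 1, and 0 reversed while called. Of the 45 named as not called, some of them because an alternative called them, 15 were called in at least 1 alternative. DESeq2 size factors changed no call, and DESeq2 lost 0 and gained 3. Mouse as a replicate block lost 0 and gained 9, each given beside its result, and changed no other call: 13 interactions were called in place of 10, 29 genes in place of 26 for LP 3M PIC against LP 3M, and 24 in place of 22 for LP PIC against LP. Plain library totals, an alternative chosen after seeing the data, moved the median of all genes by −0.112 for LP 3M PIC and −0.109 for LP 3M, each against LP, lost 6 calls and gained 2. Under them these uncalled estimates changed sign: Rela (−0.0189), Ikbkb (−0.0793), Chuk (−0.0439), Ikbkg (−0.00205) and Cyld (−0.047) with LP 3M against LP, Tnfaip3 (−0.0271) for LP 3M against LP PIC, and Icam1 (−0.0111) for LP 3M PIC against LP PIC.

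For the 47 further pathway genes the interaction was called for 6 with all mice, where 8.43% of all tested genes were called. With 1 mouse or 1 library left out in turn, it was called for 4 to 13 of the 33 genes and for 2 to 9 of the 47. Of the 47 it was called for 2 without mouse 1, 3 without mouse 2 and 2 without mouse 4. Shares of all tested genes with a mouse or library left out are not given here. Uncalled estimates that changed sign ran from −0.0156 to 0.35 for Rel, −0.0926 to 0.0363 for Ikbkg and −0.124 to 0.0442 for Tnip3 with LP PIC against LP. They ran from −0.00534 to 0.0574 for Ikbkb and −0.00336 to 0.104 for Chuk with LP 3M against LP, and from −0.366 to 0.0385 for Nfkbie, −0.127 to 0.0424 for Map3k14 and −0.174 to 0.225 for Icam1 with LP 3M PIC against LP PIC. For Tnfaip3 between LP 3M and LP PIC the range was −0.0674 to 0.114. The cause was not tested. The same 5 mice served each condition, and the main fit held no mouse term. In that fit the smallest differences lie near what the spread between mice allows to be called.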
